A study of Mus musculus with 6 samples.

Results

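The genes described here are 10 enzymes and receptors that stand on either side of aldehyde and retinoid metabolism: the aldehyde dehydrogenases Aldh1a1, Aldh1b1, Aldh2, Aldh3a2, Aldh9a1 and Aldh16a1, the formaldehyde-clearing dehydrogenase Adh5, and the retinoid receptors Rara, Rarg and Rxra. They were taken by symbol from a fixed list, and all 10 were found among the 21851 genes of the files. RNA was sequenced from mouse bone marrow hematopoietic stem cells (HSCs), in 3 control libraries (Ctrl) and 3 libraries from mice exposed to ionizing radiation (IR). All 6 came from wild-type, background-matched mice, and the sort gate was lineage-negative, Sca-1+, c-Kit+, CD150+, Flt3- and CD48-. The sources used here give no radiation dose, no time from exposure to sorting, no age and no count of mice behind a library. No label says whether the 3 libraries within each group were made from different animals, so a p-value here reflects only how far these libraries spread, which may be technical.

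Aldehyde dehydrogenases (ALDHs) oxidize aldehydes, which otherwise bind to DNA and protein, to carboxylic acids. High ALDH activity is used to isolate blood-forming stem cells, and loss of Aldh2 or Adh5 together with crosslink repair is known to exhaust HSCs in mice. The ALDH1A enzymes also make retinoic acid from retinaldehyde. Retinoic acid binds the retinoic acid receptors (RARs), which act on DNA as pairs with retinoid X receptors (RXRs) and steer both HSC maintenance and myeloid differentiation.

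Values are FPKM, that is fragments scaled by transcript length and by the mapped fragments of the library, and levels can be compared between genes because they are per length. The spacing of the low values corresponds to about 14400000 to 16300000 fragments per library, so that a gene of 1 kb at 1 FPKM rests on about 14.4 to 16.3 fragments. Between 10122 and 10212 genes reached 1 FPKM in a library. The test covered the 10281 genes that reached 1 FPKM in 3 or more libraries. It was run on log2(FPKM + 1) with limma, and a gene was called where its Benjamini-Hochberg adjusted p over all genes tested was under 0.05. Fold changes on this scale understate the change of genes near or under 1 FPKM. Of 14 HSC identity genes 13 reached 1 FPKM in a library; Fgd5 did not. The RNA of the sort markers did not follow the gate, which is set on surface protein, for all 5 markers. Cd48, whose protein the gate excludes, was at 396 to 403 FPKM in control and 343 to 359 FPKM in irradiated libraries (log2 fold change -0.19). Flt3, excluded as well, was at 124 to 127 and 64.4 to 67.2 FPKM (-0.92). Slamf1 (CD150), which the gate requires, was at 3.14 to 3.95 and 4.58 to 5.46 FPKM (0.41). Ly6a (Sca-1), required too, was at 198 to 208 and 152 to 162 FPKM (-0.37), and these 4 were called. Kit (c-Kit), also required, was at 95.5 to 98.5 and 94.8 to 97.8 FPKM and was not called (-0.01). The cells are called HSCs here because the labels do so, and the part of the marker differences in the results was not tested.

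Of the 10 genes 9 were tested: 3 rose in irradiated HSCs, 2 fell and 4 were not called, while Rara lay under the filter. Aldh1a1 rose 2.19-fold, Aldh9a1 1.13-fold and Aldh16a1 1.16-fold, and Aldh1b1 and Aldh3a2 were 1.24-fold and 1.14-fold lower. The called share was 54.7% over all genes tested, with 25.8% higher and 28.9% lower, so the 55.6% of tested members called is near the share of genes in general. Their median log2 fold change was 0.01 and the median size of their change 0.17, against -0.01 and 0.14 over all genes tested. In bulk RNA, fewer cells of a type and less RNA per cell cannot be told apart.

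The promoters of the 5 called members are shown because these genes moved in opposite directions, and that of Rarb, the third retinoic acid receptor gene, because it holds a textbook response element for the receptors. Each line gives the 120 bases before a RefSeq start site, 5′ to 3′ on the gene's strand, from the GRCm38.p6 build. Capitals mark the CCAAT box (CCAAT or ATTGG), the octamer (ATGCAAAT), the GATA site (AGATAA), the GC box (GGGCGG or CCGCCC) and, in Rarb, a direct repeat of the receptor core hexamer with 5 bases between (DR5).
Aldh1a1, chr19:20601848-20601967, plus strand: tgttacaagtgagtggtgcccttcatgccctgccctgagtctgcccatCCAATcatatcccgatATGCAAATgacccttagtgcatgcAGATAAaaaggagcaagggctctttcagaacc
Aldh9a1, chr1:167349871-167349990, plus strand: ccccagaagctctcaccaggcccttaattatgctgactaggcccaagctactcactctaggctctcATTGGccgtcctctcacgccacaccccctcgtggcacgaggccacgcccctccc
Aldh16a1, chr7:45154537-45154656, minus strand: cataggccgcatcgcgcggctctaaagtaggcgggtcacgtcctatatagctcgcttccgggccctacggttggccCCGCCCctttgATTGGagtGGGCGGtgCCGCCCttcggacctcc
Aldh1b1, chr4:45798902-45799021, plus strand: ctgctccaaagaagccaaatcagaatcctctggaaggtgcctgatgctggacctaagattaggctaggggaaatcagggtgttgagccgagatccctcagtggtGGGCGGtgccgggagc
Aldh3a2, chr11:61267187-61267306, minus strand: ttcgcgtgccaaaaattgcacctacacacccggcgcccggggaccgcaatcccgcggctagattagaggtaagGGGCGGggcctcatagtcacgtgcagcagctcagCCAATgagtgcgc
Rarb, chr14:16575477-16575596, minus strand: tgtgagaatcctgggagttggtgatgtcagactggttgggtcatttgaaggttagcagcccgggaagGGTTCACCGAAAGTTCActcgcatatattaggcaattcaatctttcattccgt

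Motifs were searched on both strands in the 250 bases before the start, in 32851 promoters. The 3 risers Aldh1a1, Aldh9a1 and Aldh16a1 each held a CCAAT box, but so did the faller Aldh3a2 and 33.8% of all promoters. In Aldh1a1 the CCAAT box lay from -72 to -68, the octamer from -56 to -49 and the GATA site from -32 to -27, counted from the start site. A GATA site also lay in the Aldh9a1 window, from -150 to -145, and in 1 of the 2 Rarg windows, from -146 to -141. An octamer was found in 1.60% and a GATA site in 9.99% of all promoters. The same Aldh1a1 window held 1 CpG, against a median of 6 over all promoters and 4, 8, 18 and 18 in Aldh1b1, Aldh9a1, Aldh3a2 and Aldh16a1. A second Aldh1a1 window, upstream at chr19:20492333-20492582, held none of these motifs and 3 CpG. The hexamer was searched with 4 spellings: AGGTCA with its variant AGTTCA, and GGGTCA with its variant GGTTCA. At least 1 hexamer was found in 38.6% of all promoters. The printed Aldh1a1 window held one from -49 to -44 and Aldh16a1 one from -88 to -83, not marked above. Hexamers also lay in windows of Rara, Rarg and Rxra. The direct repeat of the hexamer with 5 bases between was found in 0.0883% of promoters. Rarb holds this DR5 from -53 to -37, and no window of the members with a RefSeq entry did. These are matches of letters and no evidence of binding. Aldh2 was named only, since the promoter table held no entry for it.

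Aldh1a1, the cytosolic retinaldehyde dehydrogenase, showed the largest change of the 10. The protein-coding gene spans chromosome 19 from 20492715 to 20643465 on the plus strand (GRCm38, GENCODE M21, as for the positions that follow). Its level was 11.1, 12.4 and 11.7 FPKM in the control libraries and 25.1, 24.5 and 27.6 FPKM in the irradiated libraries. The lowest irradiated library lay well above the highest control, and the groups did not overlap. The mean rose from 11.8 ± 0.675 to 25.8 ± 1.65 FPKM (SD, n = 3 each), a log2 fold change of 1.07 (SE 0.0537, limma Benjamini-Hochberg adjusted p = 2.63e-07). On the scale of log2(FPKM + 1) this was rank 11 among the rises of the 10281 genes tested. That scale shrinks the changes of genes at low level, so some of them with a larger ratio of means rank below Aldh1a1. Of the 50-base words of its longest coding transcript 6.54% also occur in Aldh1a7, the neighbouring paralog on the opposite strand, so a small part of its reads could be shared. Aldh1a7 itself stood at 0.0985, 0.627 and 0.236 FPKM in controls and 0.984, 0.657 and 0.642 FPKM in irradiated libraries, under the filter in all 6.

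Within the ALDH1A enzymes, Aldh1a1 accounted for nearly all measured RNA. Summed with Aldh1a2 and Aldh1a3, the level was 11.2 to 12.6 FPKM in control libraries and 24.7 to 27.7 FPKM in irradiated HSCs. Aldh1a2, the main retinoic acid synthase of the embryo, did not exceed 0.239 FPKM in any library. The share of Aldh1a1 in the summed FPKM of the 21 ALDH genes was 3.31% to 3.70% in control libraries and 6.76% to 7.50% in irradiated HSCs.

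**Figure D1:**
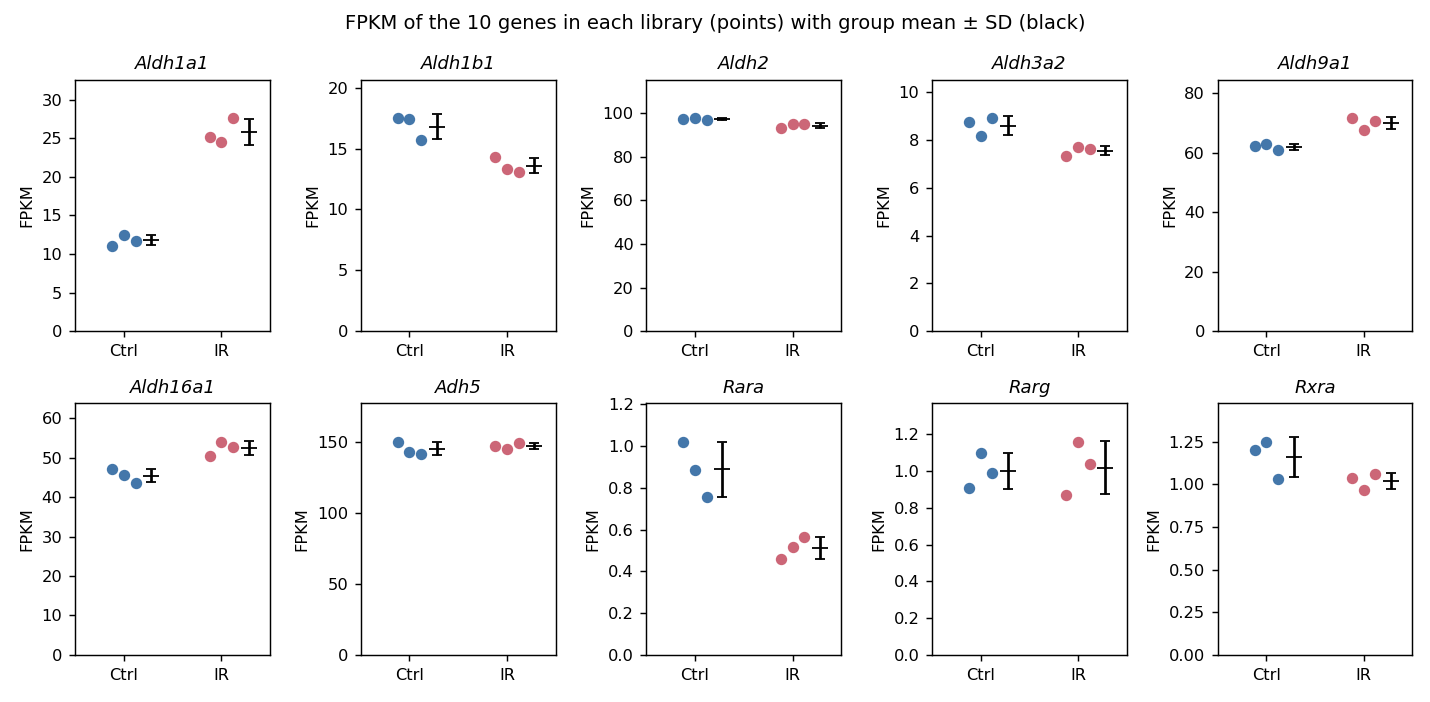
FPKM of each of the 10 genes by group, with 1 point per library and the group mean ± SD (n = 3) in black; each axis is linear and starts at 0. Aldh1a1 moves from between 11.1 and 12.4 FPKM in controls to between 24.5 and 27.6 FPKM after irradiation, whereas the groups of Adh5, Rarg and Rxra overlap.

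Markers of other lineages moved beside Aldh1a1. Of those tested, 9 of 13 erythroid, 9 of 12 megakaryocyte and 5 of 7 mast cell and basophil markers were higher. In the same order 4, 1 and 1 were lower, against 25.8% higher over all genes tested. The 4 lower erythroid markers were Hba-a1 (-0.48), Hba-a2 (-0.58), Hbb-bs (-1.04) and Car2 (-0.06), while Hbb-bt rose by 0.23. Ermap, counted as higher, was under 1 FPKM in every control library and passed the filter through the irradiated libraries alone. Of 17 erythroid markers 16 were in the files and 14 reached 1 FPKM in a library. The erythroid sum was 579 to 584 FPKM in control libraries and 609 to 612 FPKM in irradiated HSCs. The late erythroid genes Alas2 and Slc4a1 were under 1 FPKM throughout and not tested. Their means were 0.792 and 0.247 FPKM in controls and 0.199 and 0.0492 FPKM in irradiated HSCs. The 16 megakaryocyte and platelet markers summed to 205 to 211 and 271 to 286 FPKM, with Gp6 at 0 and Tubb1 and Clec1b under 1 FPKM. The mast cell and basophil markers, 10 in the files, summed to 320.4 to 328 and 391 to 404 FPKM, with Mcpt4, Tpsb2 and Cma1 under 1 FPKM. The part of these cells in the rise of Aldh1a1 was not tested.

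Aldh1b1, a mitochondrial enzyme that oxidizes acetaldehyde and retinaldehyde, went the opposite way. The gene lies on chromosome 4 from 45799022 to 45804604. Control libraries held 17.5, 17.4 and 15.7 FPKM and irradiated libraries 14.3, 13.3 and 13.1 FPKM, with no overlap. The log2 fold change was -0.29 (SE 0.0515, limma Benjamini-Hochberg adjusted p = 0.000919). The order of both genes was therefore exchanged: the ratio of Aldh1a1 to Aldh1b1 was 0.633 to 0.749 in the controls and 1.76 to 2.11 in the irradiated libraries.

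Aldh2, the mitochondrial acetaldehyde dehydrogenase, was the most abundant ALDH gene in every library. It lies on chromosome 5 from 121566027 to 121593824. Its level was 97.3, 97.6 and 96.5 FPKM in controls and 93.1, 94.9 and 94.7 FPKM in irradiated HSCs. All irradiated libraries lay below all controls, but the difference of -0.04 on the log2 scale was not called (limma Benjamini-Hochberg adjusted p = 0.131), with a 95% confidence interval from -0.09 to 0.01. Aldh2 made up between 29.1% and 29.3% of the ALDH sum in control libraries and between 25.7% and 26.2% in irradiated ones, while the sum itself was 329 to 336 FPKM and 359 to 369 FPKM. Aldh2 exceeded Aldh1a1 by 7.85 to 8.78 times in controls and 3.43 to 3.87 times after irradiation. The exons of Aldh2 share 130 bases with Gm42879 on the other strand.

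Adh5, the glutathione-dependent formaldehyde dehydrogenase, was the most abundant of the 10. It lies on chromosome 3 from 138443093 to 138455499, and its levels were 149.9, 143 and 141 FPKM in controls and 147, 145 and 149 FPKM in irradiated HSCs. The groups overlapped and Adh5 was not called (log2 fold change 0.02, 95% confidence interval -0.04 to 0.08, limma Benjamini-Hochberg adjusted p = 0.481). Esd, the hydrolase that completes formaldehyde oxidation after Adh5, was not called either, at 75.1 ± 2.20 and 73.1 ± 2.77 FPKM (log2 fold change -0.04). The other 6 alcohol dehydrogenase genes searched (Adh1, Adh4, Adh6a, Adh6b, Adh7 and Adhfe1) were under 1 FPKM in all libraries.

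Aldh9a1, which oxidizes aminoaldehydes on the way to carnitine and GABA, rose slightly. The gene is on chromosome 1 from 167349991 to 167368532. Controls held 62.2, 63.1 and 60.8 FPKM and irradiated libraries 71.7, 67.8 and 70.7 FPKM. The groups were apart, with a log2 fold change of 0.17 (SE 0.0296, limma Benjamini-Hochberg adjusted p = 0.000724). Its share of the ALDH sum was 18.5% to 18.8% in control libraries and 18.7% to 19.9% in irradiated HSCs, so the shares overlapped where the levels did not.

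Aldh16a1, an atypical family member with little known function, rose by a like amount. It lies on chromosome 7 from 45140684 to 45154584. Its level was 47.0, 45.5 and 43.6 FPKM in controls and 50.5, 54.0 and 52.7 FPKM in irradiated libraries, again without overlap. The log2 fold change was 0.20 (SE 0.0362, limma Benjamini-Hochberg adjusted p = 0.000914). Its exons share 149 bases with Pih1d1 on the other strand, and whether counting used strand is not given in the sources used here.

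Aldh3a2, the fatty aldehyde dehydrogenase of the endoplasmic reticulum, was lower by a small margin. The gene is on chromosome 11 from 61223417 to 61267464. Controls held 8.77, 8.15 and 8.92 FPKM and irradiated libraries 7.33, 7.73 and 7.61 FPKM. The groups did not overlap, and the log2 fold change was -0.17 (SE 0.0481, limma Benjamini-Hochberg adjusted p = 0.0137). The call was lost without control replicate 3, where the log2 fold change was -0.14 and the limma adjusted p 0.0533. It was kept in the other 14 settings tried, in some by a small margin. The limma adjusted p was 0.0447 without control replicate 1, 0.0483 without irradiated replicate 1 and 0.0436 with quantile normalization. At its lowest it was 0.00997, without control replicate 2.

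In 6 of the 9 tested members the groups did not overlap, as in 61.7% of all genes tested. In size on the log2(FPKM + 1) scale, the change of Aldh1a1 was the largest of the 9 and exceeded that of 99.5% of tested genes. It was followed by Aldh1b1 at 81.1%, Aldh16a1 at 67.0% and Aldh9a1 at 60.3%. Adh5 and Rarg changed less than most genes, exceeding 9.51% and 4.87%.

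The rest of the ALDH family was examined from a list of 21 genes. Of these 12 were tested, 5 were higher, 4 lower and 3 not called (9 of 12 called, against 54.7% of all genes). The median change was -0.01 on the log2 scale. Beside the members, Aldh18a1, which makes the proline precursor pyrroline-5-carboxylate, rose from 36.1 ± 0.804 to 46.8 ± 1.68 FPKM (log2 fold change 0.36). Aldh4a1, the mitochondrial enzyme that breaks the same compound down to glutamate, rose from 11.5 ± 0.393 to 14.2 ± 0.596 FPKM (0.28). Aldh6a1, of valine and thymine breakdown, had 13.8 ± 0.467 FPKM in controls and 9.70 ± 0.145 FPKM in irradiated HSCs (-0.47) and fell. Aldh3b1, named after its value was seen, fell from 2.48 ± 0.310 to 1.51 ± 0.315 FPKM. Beside Aldh2, Aldh1l1, which oxidizes formyl-tetrahydrofolate, and Aldh7a1, of lysine breakdown, were not called, at 11.3 ± 0.171 and 10.6 ± 0.476 FPKM and at 15.2 ± 0.152 and 15.5 ± 0.299 FPKM. Aldh1l1 and Aldh7a1 were also named after their values were seen. The other 9 ALDH genes were under 1 FPKM in all libraries, and Aldh3b2 was listed at 0 in all 6.

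**Figure D2:**
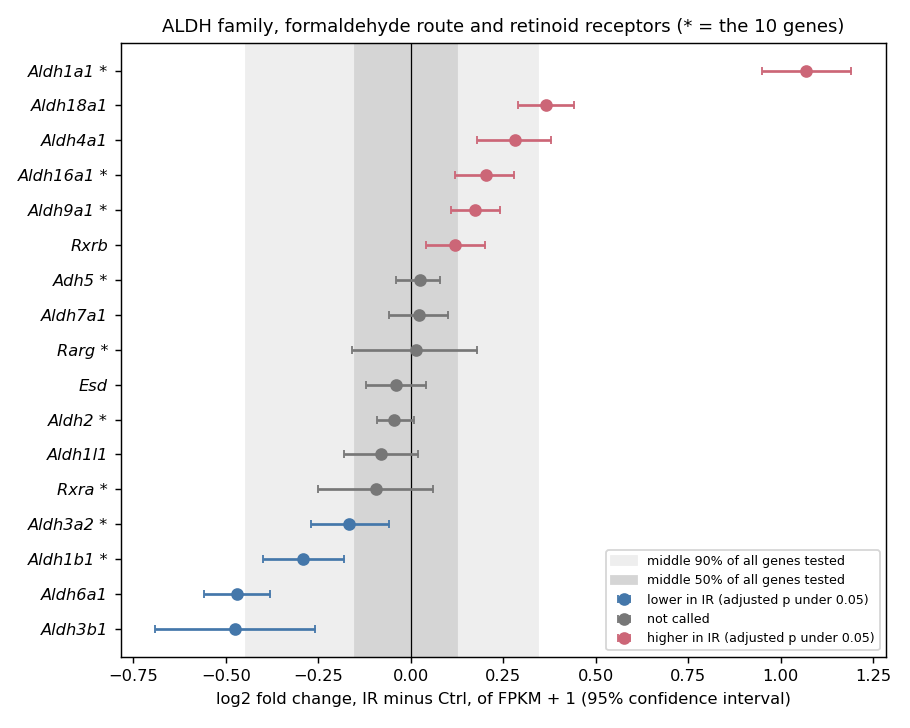
Log2 fold change (IR minus Ctrl, of FPKM + 1) with 95% confidence interval for each tested gene of the ALDH family, the formaldehyde route and the retinoid receptors, over grey bands that hold the middle 50% and 90% of all genes tested. Aldh1a1 at 1.07 lies far to the right of the band and of every other gene shown, and Aldh1b1 and Aldh3a2 at -0.29 and -0.17 lie on the side of the lower genes.

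**Figure D3:**
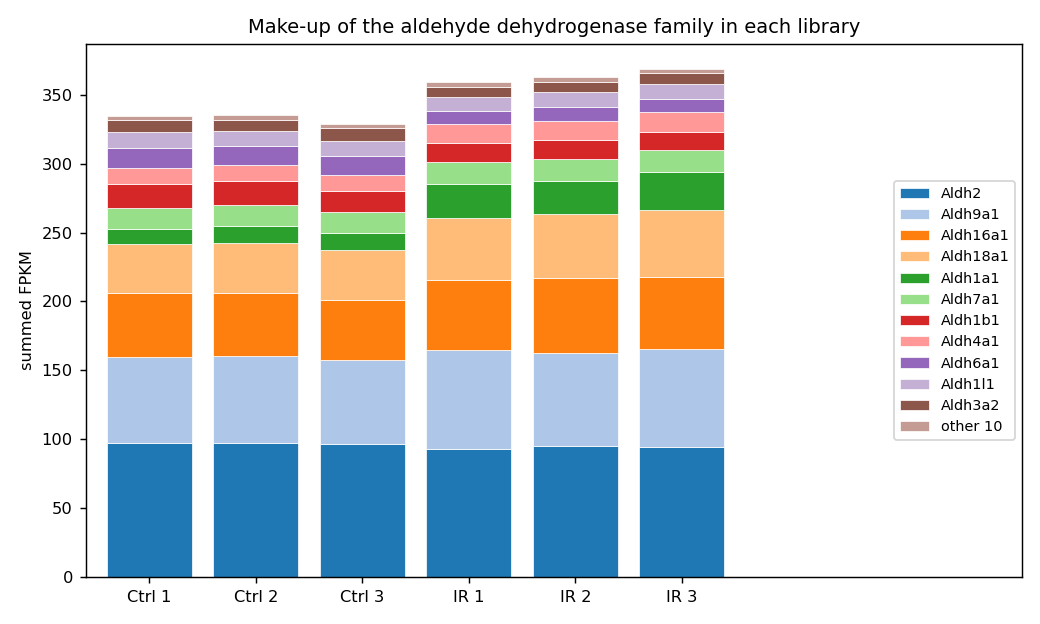
Summed FPKM of the 21 ALDH genes in each library, stacked by gene, with the 10 least abundant genes joined. The stack reaches 329 to 336 FPKM in control libraries and 359 to 369 FPKM after irradiation, and Aldh2 forms the largest part in each library.

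Enzymes that remove aldehydes by reduction or conjugation were called about as often as genes in general. Of 16 aldo-keto reductases, carbonyl reductases, glyoxalases and like enzymes 14 were tested, with 3 rises, 4 falls and 7 genes not called (7 of 14 called, near the 54.7% over all genes), and the median change was -0.03 on the log2 scale. By fold size the largest change was in Cbr3, a carbonyl reductase whose control libraries spread widely, from 2.69 ± 0.545 to 1.13 ± 0.211 FPKM (log2 fold change -0.79). Akr7a5, an aflatoxin aldehyde reductase, rose from 23.4 ± 0.629 to 28.9 ± 1.14 FPKM (0.29), and Akr1b10 from 30.7 ± 1.95 to 35.5 ± 2.69 FPKM (0.20). Akr1a1, the abundant aldehyde reductase, fell from 439 ± 7.04 to 415 ± 10.2 FPKM (-0.08), Akr1e1 had a log2 fold change of -0.16 and Akr1b3, aldose reductase, of 0.09. The fourth to fall was Cbr1, a carbonyl reductase, named after its value was seen, at -0.12.

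Retinoid receptor RNA was scarce apart from Rxrb. Rxrb, an RXR gene outside the 10, stood at 44.0, 44.5 and 46.1 FPKM in controls and 46.9, 49.3 and 50.3 FPKM in irradiated HSCs, and rose by 0.12 on the log2 scale (limma Benjamini-Hochberg adjusted p = 0.0132). It made up 92.1% to 93.8% of the summed receptor FPKM in controls and 94.7% to 95.1% in irradiated libraries. All other receptors were at or under 1.25 FPKM in every library.

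Rara, the receptor gene best known from myeloid differentiation, was the lowest of the 10. It lies on chromosome 11 from 98927818 to 98974942. Its level was 1.02, 0.887 and 0.758 FPKM in controls and 0.457, 0.518 and 0.563 FPKM in irradiated libraries. All 3 irradiated libraries lay below all controls, and the means of 0.889 ± 0.131 and 0.513 ± 0.0533 FPKM differed 1.73-fold. Only 1 library reached 1 FPKM, so Rara was not among the tested genes and carries no call. In the fit without a filter on low values it had a log2 fold change of -0.32 and a limma Benjamini-Hochberg adjusted p of 0.00495, where 43.2% of 15010 genes were called. With its longest coding transcript the values correspond to about 24.4 to 51.0 fragments per library, so that counting error is large.

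Rarg, the receptor tied to HSC self-renewal, did not follow Rara. It lies on chromosome 15 from 102234938 to 102257517. Controls held 0.911, 1.10 and 0.992 FPKM and irradiated libraries 0.871, 1.16 and 1.04 FPKM, and the groups overlapped. The log2 fold change was 0.01 (95% confidence interval -0.16 to 0.18, limma Benjamini-Hochberg adjusted p = 0.898), and its sign changed when single libraries were left out. The ratio of Rarg to Rara was 0.892 to 1.31 in control libraries and 1.84 to 2.24 in irradiated HSCs, a separation on about 39.7 to 53.0 fragments of Rarg per library.

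Rxra, the main RXR gene of liver and myeloid cells, was near the filter as well. The gene is on chromosome 2 from 27676440 to 27762957. Its level was 1.20, 1.25 and 1.03 FPKM in controls and 1.04, 0.965 and 1.06 FPKM in irradiated libraries, with overlap. Rxra was not called (log2 fold change -0.09, 95% confidence interval -0.25 to 0.06, limma Benjamini-Hochberg adjusted p = 0.268).

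Rarb, whose DR5 is shown above and which is named after its values were seen, stood at 0.555, 0.505 and 0.239 FPKM in controls and 0.0336, 0.0717 and 0.148 FPKM in irradiated libraries. All irradiated values were below all controls, at a level of few fragments and under the filter. The 3 RAR genes together summed to 1.99 to 2.50 FPKM in control libraries and 1.36 to 1.75 FPKM in irradiated HSCs, and the 3 RXR genes to 45.3 to 47.2 and 47.9 to 51.4 FPKM.

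By level, the controls ordered the 10 genes as Adh5, Aldh2, Aldh9a1, Aldh16a1, Aldh1b1, Aldh1a1, Aldh3a2, Rxra, Rarg and Rara. The ranges of neighbours were apart down to Rxra, while those of Rxra and Rarg overlapped, as did those of Rarg and Rara. In irradiated HSCs Aldh1a1 stood above Aldh1b1, the ranges of Rxra and Rarg overlapped, and Rara lay below both.

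Genes that bring retinol into the pathway and turn it into retinaldehyde were taken from a list of 30. Of these 13 were tested, 4 rose, 4 fell and 5 were not called (61.5% called, near the 54.7% over all genes; median change -0.02 on the log2 scale). Rdh12, which interconverts retinaldehyde and retinol, stood at 12.3, 13.0 and 11.8 FPKM in controls and 6.91, 5.97 and 7.47 FPKM in irradiated HSCs, and fell by 0.79 on the log2 scale (limma Benjamini-Hochberg adjusted p = 1.04e-05). Dhrs3, which reduces retinaldehyde back to retinol, fell from 27.9 ± 0.251 to 19.1 ± 0.102 FPKM (-0.53). Rdh14 fell from 31.1 ± 0.546 to 26.0 ± 0.958 FPKM (-0.25). In the other direction Rdh10, the main retinol-oxidizing enzyme, rose from 2.12 ± 0.0793 to 3.24 ± 0.441 FPKM (0.44), and Retsat, retinol saturase, by 0.12. Dhrs7 fell as well (-0.19). The remaining calls, named after their values were seen, were the rises of Rdh5 (0.30) and Dgat1 (0.17). Rdh5 was under 1 FPKM in every control library and passed the filter through the irradiated libraries alone. Retinoic acid hydroxylases were not detected above 0.0241 FPKM: Cyp26a1 and Cyp26c1 were listed at 0 in all libraries.

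Among 12 genes known to respond to retinoic acid 2 were tested, Dhrs3 and Tgm2, and 5 were listed at 0 in all libraries. Tgm2, a transglutaminase, rose from 7.98 ± 0.201 to 11.4 ± 0.0894 FPKM (log2 fold change 0.46), against the fall of Dhrs3 given above. Nuclear receptors that pair with RXR had 5 tested members of 13, of which 2 rose and 3 fell. All 5 were thus called, against 54.7% over all genes tested, and the other 8 were under 1 FPKM in all libraries. Vdr, the vitamin D receptor, fell from 6.64 ± 0.236 to 4.54 ± 0.251 FPKM (-0.46), Nr1h2, an oxysterol receptor, from 46.1 ± 0.925 to 39.4 ± 1.77 FPKM (-0.22) and the thyroid hormone receptor Thra from 1.80 ± 0.180 to 1.24 ± 0.277 FPKM (-0.33). The orphan receptors Nr4a1 and Nr4a2 rose by 0.34 and 0.46. Nr4a2 stood at 0.661, 0.720 and 0.657 FPKM in controls and 1.11, 1.37 and 1.44 FPKM in irradiated HSCs. It passed the filter through the irradiated libraries alone, so it could hardly have been called lower.

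Of 17 nuclear receptor coregulators 16 were tested, and most were not called: 3 rose, 1 fell and 12 were not called, against 54.7% called over all genes. The untested gene was Ncoa1, named after its values were seen and under 1 FPKM throughout. It stood at 0.902, 0.713 and 0.709 FPKM in controls and 0.269, 0.321 and 0.217 FPKM in irradiated libraries, without overlap. Sin3a, a scaffold of histone deacetylase complexes, rose from 10.8 ± 0.165 to 13.0 ± 0.301 FPKM (0.24), Med1, a Mediator subunit, by 0.19 and the co-activator Ncoa3 by 0.18, while Gps2, a subunit of the co-repressor complex, had a log2 fold change of -0.14. Tbl1xr1 and Tbl1x, exchange factors of the co-repressor complex, were not called, with log2 fold changes of 0.13 and 0.07.

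**Figure D4:**
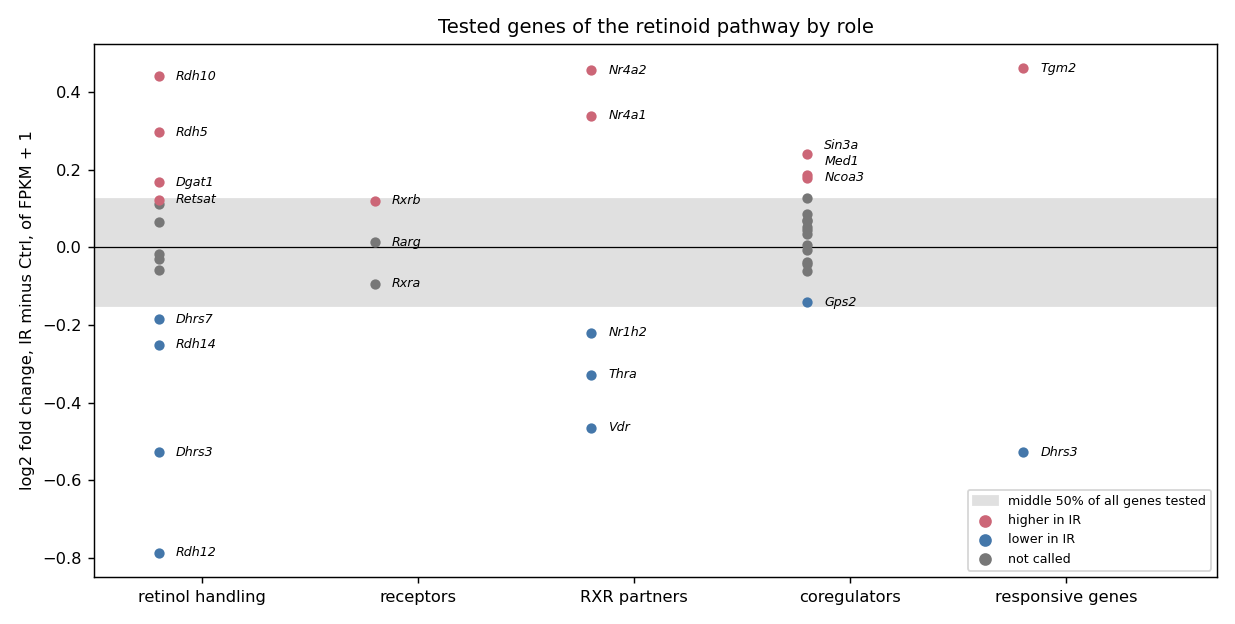
Log2 fold change (IR minus Ctrl, of FPKM + 1) of each tested gene of the retinoid pathway, 1 column per role, over a grey band that holds the middle 50% of all genes tested. Retinol-handling genes spread from Rdh12 at -0.79 to Rdh10 at 0.44, and most of the 16 coregulators lie in the band.

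Early lymphoid and monocyte markers fell beside these genes. Of those tested, 13 of 13 lymphoid-priming and 12 of 14 monocyte markers were lower and none was higher. Over all genes tested 28.9% were lower. The lymphoid markers Il7r and Rag2 and the monocyte marker Adgre1 were under 1 FPKM in every irradiated library. These passed the filter through the control libraries alone, so they could hardly have been called higher. Of the other lists, 7 of 7 tested eosinophil, 6 of 6 stromal and 5 of 8 dendritic cell markers were lower, and the dendritic marker H2-Aa was higher (0.58). The 12 tested neutrophil markers split into 6 higher and 6 lower. Lower and higher were 4 and 0 of 8 endothelial, 3 and 2 of 6 B cell, 3 and 1 of 4 T and NK cell, and 6 and 4 of 13 HSC identity genes. Siglech, Itgax, Ltf, Retnlg and Cd4 also passed the filter through control libraries alone, and Hoxb5 through irradiated libraries alone. The eosinophil sum was 122 to 128 FPKM in control and 57.4 to 63.1 FPKM in irradiated libraries, with Ccr3 and Il5ra under 1 FPKM. The 14 lymphoid-priming markers summed to 1410.2 to 1418 FPKM in control libraries and 768 to 792 FPKM in irradiated HSCs, with Rag1 under 1 FPKM. The 16 monocyte and macrophage markers summed to 664 to 674 and 557 to 563 FPKM, with Mrc1 and Fcgr1 under 1 FPKM. Their part in the lower levels of Aldh1b1, Rara, Vdr or Dhrs3 was not tested.

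The genes whose pattern over the 6 libraries was most like that of Aldh1a1 were Clca3a1, H2-Q7, Ybx3, Dynlt1b and Cenpv. They had the smallest Euclidean distance between log2(FPKM + 1) values centred on the control mean. Compared were 7237 tested genes whose mean reached 5 FPKM, with symbols of predicted or unnamed genes left out. The distances were 0.171, 0.211, 0.230, 0.270 and 0.288. Clca3a1 went from 3.07 ± 0.0333 to 7.57 ± 0.132 FPKM and Ybx3 from 35.9 ± 0.955 to 74.8 ± 1.34 FPKM. With 2 groups this distance mostly compares the size of the group difference. H2-Q7 has near-identical neighbours that can share reads.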

How the data were processed

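The deposited values are FPKM, 1 column per library; the column carries no unit, and FPKM was taken from the range of its values and the name of the assembler. Per the submitters' processing notes, the authors used fastp, HISAT2 and StringTie on GRCm38 (mm10); the sources used here give no versions, settings or annotation. Per the labels' protocols, libraries were made with a stranded kit that selects mRNA. Of 21878 entries, 27 that carried a date in place of a symbol were left out. Depth was estimated from low values of single-transcript genes (GENCODE M21): 107 to 112 values per library lay within 0.01 of a whole multiple of the best step, against a median of 6 at other steps, too few to recover reads. The median squared deviation between replicates was 1.25 to 1.67 times that of counting noise (6 pairs), and no pair shared an identical nonzero value. log2(FPKM + 1) was tested with limma 3.58.1 (mean-variance trend, 2-sided) in R 4.3.3 on all 6 libraries without a replicate block. The method was also run on simulated data, in which far fewer genes changed than were called here, so that run does not cover this setting. Lists are described by counts and medians; 2 listed genes are not reported here and were left out of the lists. The members, lists, test and 15 alternatives were chosen with earlier results of these data known. Named genes are the members, the sort markers, up to 6 tested genes per list with the smallest p, and the 5 genes most like Aldh1a1. Others are said to be named after their values were seen, which also holds for cell type markers named beside list counts.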

Additional observations from a re-analysis of the deposited data

How the results depend on the processing

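Under the 15 alternatives, Aldh1a1 (log2 fold change 0.88 to 1.13), Aldh9a1 (0.16 to 0.20), Aldh16a1 (0.18 to 0.23) and Aldh1b1 (-0.34 to -0.23) kept their direction and their call, and 3 members were higher in each. Leaving out 1 library gave 1 to 2 lower members, since Aldh3a2 lost its call without control replicate 3. Leaving out 1 library, Rarg ranged from -0.036 to 0.07, with -0.021 without control replicate 1 and -0.036 without irradiated replicate 2; the cause was not tested. The difference of Rara moved from -0.32 to -0.68 with a pseudocount of 0.1 FPKM and to -0.09 with one of 5 FPKM, as the scale makes it. A filter of 5 FPKM removed Rarg and Rxra. Same-numbered libraries did not deviate together (correlations 0.009, -0.031 and -0.049), and a fit with the replicate number as a block called 2539 genes higher and 2840 lower, and 3 and 2 of the members, with no change of a member's call. Depth limits what can be seen of Rara, Rarg, Rarb and Rxra.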
